A study of Mus musculus with 11 samples.

Results

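The genes of the NF-κB transcription factors and of proteins that regulate them in feedback were compared between hearts of *Pde2A*-/- and *Pde2A*+/+ embryos. The 10 genes were taken by symbol: the 5 subunit genes *Nfkb1*, *Nfkb2*, *Rel*, *Rela* and *Relb*, the inhibitor genes *Nfkbia* and *Nfkbie*, the nuclear IκB genes *Nfkbiz* and *Bcl3*, and *Tnfaip3*, whose protein removes or remodels the ubiquitin chains that carry the signal. They were chosen with earlier results of these data known. They were 10 of 55487 genes counted, and all 10 passed the filter of at least 10 counts summed over the 11 hearts, as did 24177 genes in all. In unstimulated cells NF-κB dimers are held in the cytoplasm by IκB proteins. Signals from receptors for TNF, IL-1 or microbial products activate the IκB kinases (IKK), the IκB protein is degraded, and the dimer enters the nucleus. Many of the genes it then induces encode its own inhibitors, which close a negative feedback loop. In the heart the pathway is best known from endothelial cells, macrophages and injured myocardium.

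The hearts came from embryos of the strain B6; 129P2-Pde2A<tm1Dgen> at E14.5, from matings between *Pde2A*+/- mice and of both sexes, with the sex of single hearts not given. The *Pde2A*-/- group (*n* = 5, replicates A, B, 14, D and 15) carried the constitutive tm1Dgen allele of *Pde2A*, a phosphodiesterase that degrades cAMP and cGMP, in all cells of the embryo, and the *Pde2A*+/+ group (*n* = 6, replicates 7, 11, 6, 8, H and E) were wild-type embryos. The litters of single hearts are not given. No embryo was treated. RNA of embryonic hearts was sequenced in stranded libraries, 1 per heart, so that the p-values measure the spread between hearts, and each heart is a mixture of cell types.

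The targeted gene was read first. *Pde2a* (ENSMUSG00000110195, GRCm38 chromosome 7 from 101421691 to 101512827) had 0 to 2 counts in each of the 11 libraries and 7 in all, so that a difference was not detectable in these counts and they could not check the genotype labels. On the same strand *Gm45837* shares 64.3% of the exon bases of *Pde2a*, and a read that lies on both genes is counted on neither. The reads counted on genes numbered between 35865537 and 42835382 per heart, the median being 37653522 in *Pde2A*-/- hearts and 37934543 in *Pde2A*+/+ hearts (exact permutation test of the mean, two-sided, p = 0.87). Levels are given in CPM, counts scaled to the size of the library after TMM normalization, as mean ± SD over the hearts of a genotype. Genotypes were compared with edgeR's quasi-likelihood test and Benjamini-Hochberg adjustment over all 24177 genes, and a gene was said to be higher or lower when its adjusted p was under 0.05. Hearts of a genotype varied by 16.8% (the common biological coefficient of variation of edgeR). The label of the tissue was checked with 12 cardiomyocyte markers, which summed to 36330 to 43290 CPM in *Pde2A*-/- and 35690 to 47270 CPM in *Pde2A*+/+ hearts. *Myh7*, the slow myosin heavy chain, was the most abundant of them (13140 ± 1646 CPM in *Pde2A*-/-, 13840 ± 2618 CPM in *Pde2A*+/+).

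In 5 libraries markers of another tissue stood apart. In *Pde2A*+/+ replicate 7 the 10 markers of T cells and thymocytes summed to 103.8 CPM, against 2.09 to 3.18 CPM in the other 10 hearts, and 8 of the 10 were highest there. In *Pde2A*+/+ replicate 11 the 5 markers of lung epithelium summed to 5.44 CPM, against 0.0782 to 0.348 CPM in the other 10 hearts. Of this sum 5.22 CPM were *Nkx2-1*, 2 of the 5 genes were highest there, and *Sftpc*, *Sftpb* and *Cldn18* had 3, 7 and 4 counts in all hearts together, so that the sum rests on 1 gene. *Pde2A*+/+ replicate 7 was also the *Pde2A*+/+ heart with the highest level for 7 of the 10 NF-κB genes, and *Pde2A*+/+ replicate 11 for 1, *Nfkbiz*. The hepatocyte genes *Alb* and *Afp* were above 11 CPM in *Pde2A*-/- replicate D and in *Pde2A*+/+ replicates 11, H and E, and highest in *Pde2A*+/+ replicate E (46.6 and 49.6 CPM), and below 1 CPM in the other 7 hearts. The number of the 10 genes that were higher, and that of the pathway genes, is therefore also given without these hearts, while most values of single genes are given with all hearts only.

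Of the 10 genes 7 were higher in *Pde2A*-/- hearts, where 8.93% of all genes tested were higher, and 0 were lower, where 5.67% were lower. DESeq2 gave 8 higher and 0 lower (11.5% and 9.74% of all genes), and at an unadjusted p under 0.05 edgeR gave 8 higher and 0 lower (15.6% and 14.9%). The 7 were all 5 genes of inhibitors and feedback regulators and 2 of the 5 subunit genes, *Nfkb2* and *Relb*. At a fold change of at least 2 as well, 2 genes were higher (2.21% of all genes tested) and 0 lower (0.372%). Every *Pde2A*-/- heart lay above every *Pde2A*+/+ heart for 3 genes, *Nfkbie*, *Tnfaip3* and *Bcl3* (5.38% of all genes tested), and below for 0 (3.11%). The 10 genes had a median log2 fold change of 0.43, and all genes tested one of −0.02. Without *Pde2A*+/+ replicate 7, 7 genes were higher, where 1811 of all genes were higher and 847 lower, and 4 did not overlap (every *Pde2A*-/- heart above for 6.31% of all genes tested). Without *Pde2A*+/+ replicate 11, 5 were higher (1895 and 1177 of all genes) and 4 did not overlap (6.05%). Without both hearts, an alternative chosen after seeing the data, 6 were higher (1486 and 744 of all genes) and 5 did not overlap (7.44%). Without *Pde2A*-/- replicate D, 5 were higher, where 1288 of all genes were higher and 414 lower. Without *Pde2A*+/+ replicate H, 5 were higher (1735 and 833 of all genes), and without *Pde2A*+/+ replicate E, 6 (1817 and 947 of all genes). Without *Pde2A*-/- replicate D and *Pde2A*+/+ replicates 11, H and E, also an alternative chosen after seeing the data and one of 7 hearts, 0 of the 10 passed the adjusted p in edgeR, where 482 of all genes were higher and 50 lower, and 5 were higher at an unadjusted p under 0.05, where 2577 of all genes were higher and 2159 lower. The log2 fold changes there were 1.58 for *Nfkbiz*, 1.05 for *Tnfaip3*, 0.88 for *Bcl3*, 0.67 for *Nfkbie*, 0.38 for *Nfkbia*, 0.35 for *Relb* and 0.31 for *Nfkb2*. Among the 5 hearts named by a letter (*Pde2A*-/- A, B and D, *Pde2A*+/+ H and E) 0 of the 10 genes passed the adjusted p in edgeR where 86 of all genes were higher and 14 lower, and 5 were higher at an unadjusted p under 0.05, where 1514 of all genes were higher and 846 lower. For the 7 genes the log2 fold changes in these 5 hearts were 1.01 for *Bcl3* (0.95 with all hearts), 0.997 for *Nfkbiz* (1.36), 0.88 for *Tnfaip3* (1.21), 0.66 for *Nfkbie* (0.74), 0.43 for *Relb* (0.45), 0.35 for *Nfkbia* (0.40) and 0.23 for *Nfkb2* (0.38). Among the 6 hearts named by a number 5 of the 10 were higher, where 2310 of all genes were higher and 1814 lower. In whole hearts, more cells of a type and more RNA per cell cannot be told apart.

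**Figure D1:**
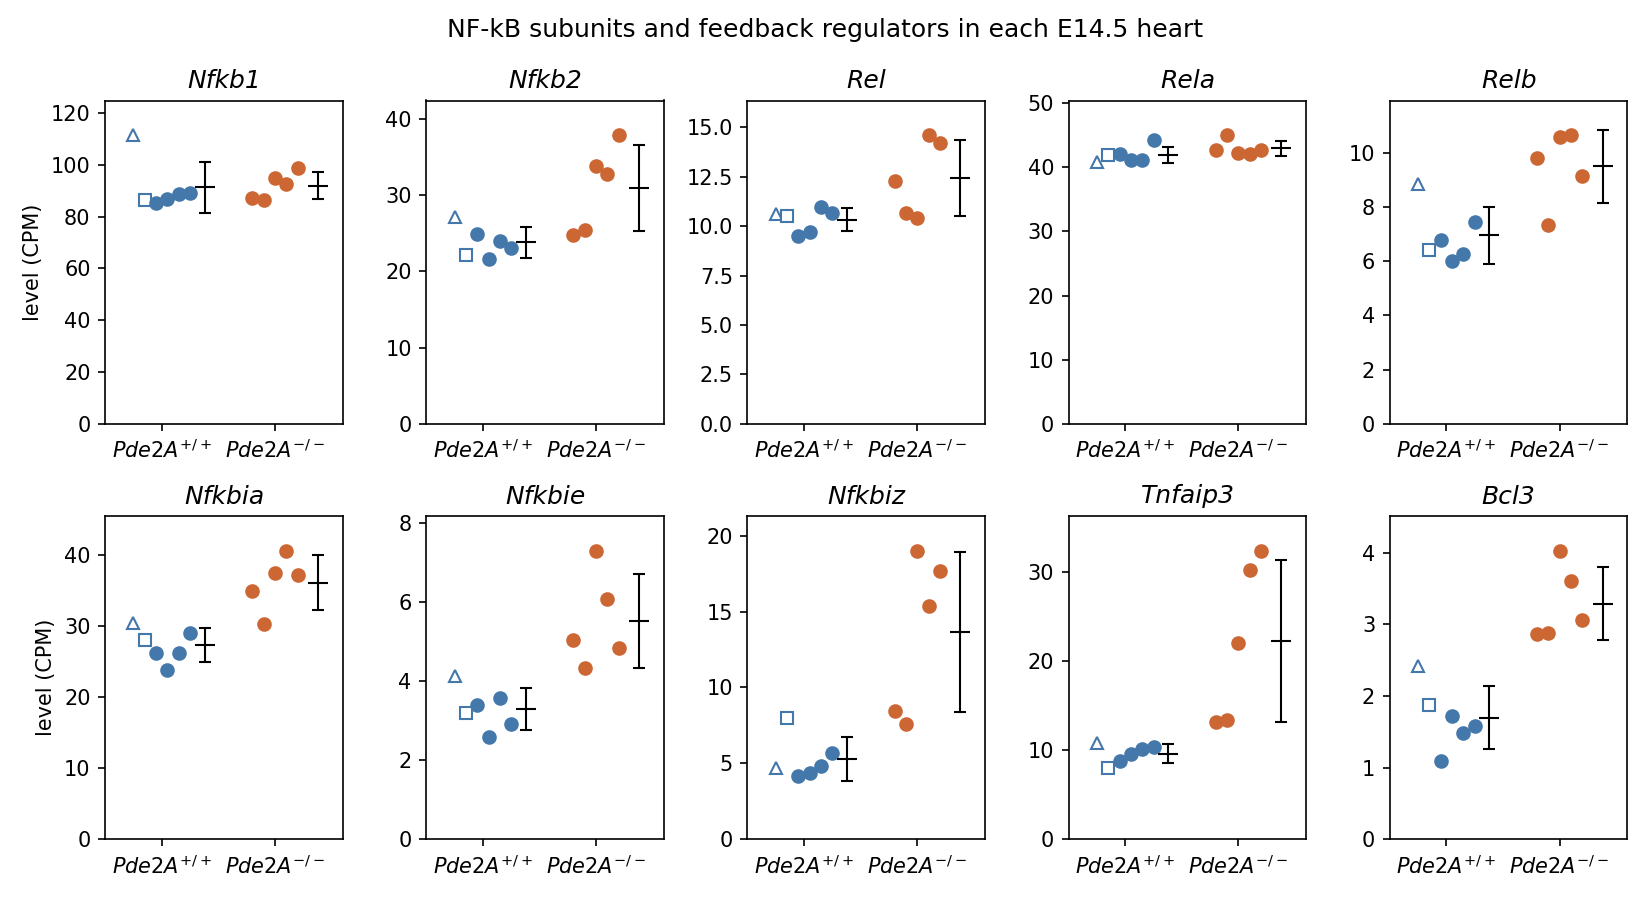
Level in CPM (linear axes from 0) of the 10 genes in each of 6 *Pde2A*+/+ (blue) and 5 *Pde2A*-/- (orange) hearts, with mean ± SD in black, *Pde2A*+/+ replicate 7 as an open triangle and *Pde2A*+/+ replicate 11 as an open square. From left to right the points are *Pde2A*+/+ replicates 7, 11, 6, 8, H and E and *Pde2A*-/- replicates A, B, 14, D and 15; the genotypes do not overlap for *Nfkbie*, *Tnfaip3* and *Bcl3*, and *Rela* is between 40.8 and 45.01 CPM in all 11 hearts.

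*Nfkb1* and *Rela* encode the p105 precursor of p50 and the p65 protein, which together form the main dimer of the canonical pathway. *Nfkb1* (ENSMUSG00000028163, chromosome 3 from 135584655 to 135691547) was at 87.1, 86.5, 94.98, 92.6 and 98.8 CPM in *Pde2A*-/- replicates A, B, 14, D and 15, and in *Pde2A*+/+ hearts at 85.4 CPM at the lowest, 87.7 at the median and 111.5 at the highest. *Pde2A*+/+ replicate 7 was the highest of all hearts and the other 5 *Pde2A*+/+ hearts lay between 85.4 and 89.1 CPM, so that 3 *Pde2A*-/- hearts, 14, D and 15, were above those 5. The mean was 92.0 ± 5.24 CPM in *Pde2A*-/- and 91.3 ± 9.97 CPM in *Pde2A*+/+, with a log2 fold change of 0.01 (SE 0.07, 95% interval −0.14 to 0.16, edgeR adjusted p = 0.94). Without *Pde2A*+/+ replicate 7 the log2 fold change was 0.08 (SE 0.05) and did not pass the threshold either. *Rela* (ENSMUSG00000024927, chromosome 19 from 5637483 to 5648130) was at 42.6, 45.01, 42.3, 42.1 and 42.7 CPM in the *Pde2A*-/- hearts and at 40.8, 41.6 and 44.3 CPM at the lowest, median and highest of *Pde2A*+/+. Its genotypes overlapped, with 1 *Pde2A*-/- heart, replicate B, above all *Pde2A*+/+ hearts. The log2 fold change was 0.03 (SE 0.04, 95% interval −0.05 to 0.12, edgeR adjusted p = 0.62), so that a rise of more than 0.12 on the log2 scale lay outside the interval.

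*Rel* encodes c-Rel, a subunit best known from lymphocytes and myeloid cells. *Rel* (ENSMUSG00000020275, chromosome 11 from 23736847 to 23770970) was at 12.3, 10.7, 10.4, 14.6 and 14.2 CPM in *Pde2A*-/- replicates A, B, 14, D and 15, and at 9.48, 10.55 and 10.96 CPM at the lowest, median and highest of *Pde2A*+/+. *Pde2A*-/- replicates A, D and 15 were above all *Pde2A*+/+ hearts, and B and 14 lay within their range. The mean was 12.4 ± 1.94 CPM in *Pde2A*-/- and 10.3 ± 0.589 CPM in *Pde2A*+/+, with a log2 fold change of 0.27 (SE 0.10, edgeR adjusted p = 0.078). The gene passed the threshold without *Pde2A*-/- replicate B (log2 fold change 0.32, adjusted p = 0.039, against 0.039 to 0.20 over all hearts left out in turn) and with DESeq2 (adjusted p = 0.037).

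*Nfkb2* and *Relb* encode p100, the precursor of p52, and the RelB protein, which pair in the noncanonical pathway. *Nfkb2* (ENSMUSG00000025225, chromosome 19 from 46304320 to 46312385) was at 24.8, 25.4, 33.9, 32.75 and 37.9 CPM in *Pde2A*-/- replicates A, B, 14, D and 15, and at 21.7, 23.5 and 27.2 CPM at the lowest, median and highest of *Pde2A*+/+. *Pde2A*-/- replicates 14, D and 15 were above all *Pde2A*+/+ hearts, while A and B lay within their range. The gene was higher in *Pde2A*-/- hearts by 0.38 on the log2 scale (30.95 ± 5.66 against 23.8 ± 2.025 CPM, SE 0.11, edgeR adjusted p = 0.033). *Relb* (ENSMUSG00000002983, chromosome 7 from 19606217 to 19629438) was at 9.81, 7.34, 10.6, 10.7 and 9.15 CPM in the *Pde2A*-/- hearts and at 6.01, 6.605 and 8.87 CPM at the lowest, median and highest of *Pde2A*+/+. *Pde2A*-/- replicate B fell within the *Pde2A*+/+ range and the other 4 *Pde2A*-/- hearts were above it, with *Pde2A*+/+ replicate 7 the nearest to them. *Relb* was higher by 0.45 on the log2 scale (9.51 ± 1.36 against 6.965 ± 1.06 CPM, SE 0.12, edgeR adjusted p = 0.028). Without *Pde2A*+/+ replicate 7 the log2 fold changes were 0.42 for *Nfkb2* and 0.53 for *Relb*, and both genes remained past the threshold.

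The calls of *Nfkb2* and *Relb* lay near the threshold and were lost in most fits that left out a heart, of either genotype. *Nfkb2* missed the threshold in 8 of the 11 fits that left out a heart, those without *Pde2A*-/- replicate 14, D or 15 or *Pde2A*+/+ replicate 11, 6, 8, H or E (log2 fold change 0.30 to 0.39, edgeR adjusted p = 0.056 to 0.087). *Relb* missed it in 7 of the 11, those without *Pde2A*-/- replicate 14, D or 15 or *Pde2A*+/+ replicate 11, 6, 8 or H (log2 fold change 0.41 to 0.465, edgeR adjusted p = 0.0505 to 0.083). Both kept their direction in these fits, where 1288 to 1895 of all genes were higher, against 2160 with all hearts. The exons of *Nfkb2* overlap *AC114539.1* (11.6% of its exon bases) and *Psd* (6.52%) on the opposite strand, and the counts used here keep the strands apart.

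*Nfkbia* and *Nfkbie* encode IκBα and IκBε, cytoplasmic inhibitors that NF-κB induces and that return the dimers from the nucleus. *Nfkbia* (ENSMUSG00000021025, chromosome 12 from 55489410 to 55492647) was at 35.0, 30.3, 37.55, 40.6 and 37.2 CPM in *Pde2A*-/- replicates A, B, 14, D and 15, and at 23.8, 27.1 and 30.5 CPM at the lowest, median and highest of *Pde2A*+/+. *Pde2A*-/- replicate B lay just under *Pde2A*+/+ replicate 7, and the other 4 *Pde2A*-/- hearts were above all *Pde2A*+/+ hearts. *Nfkbia* was 1.32-fold higher in *Pde2A*-/- hearts (36.1 ± 3.84 against 27.3 ± 2.37 CPM, log2 fold change 0.40, SE 0.08, edgeR adjusted p = 0.0059), and without *Pde2A*+/+ replicate 7 the log2 fold change was 0.44 and the genotypes did not overlap. *Nfkbie* (ENSMUSG00000023947, chromosome 17 from 45555703 to 45563169) was at 5.04, 4.32, 7.29, 6.08 and 4.82 CPM in the *Pde2A*-/- hearts and at 2.59, 3.29 and 4.12 CPM at the lowest, median and highest of *Pde2A*+/+. All 5 *Pde2A*-/- hearts were above all 6 *Pde2A*+/+ hearts, with *Pde2A*-/- replicates 14 and D the highest. *Nfkbie* was 1.67-fold higher (5.51 ± 1.18 against 3.295 ± 0.536 CPM, log2 fold change 0.74, SE 0.15, edgeR adjusted p = 0.0085), and without *Pde2A*+/+ replicate 7 the log2 fold change was 0.82.

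*Nfkbiz* and *Bcl3* encode IκBζ and BCL3, nuclear IκB proteins that bind p50 or p52 on DNA and set which secondary response genes are transcribed. *Nfkbiz* (ENSMUSG00000035356, chromosome 16 from 55811375 to 55838899) was at 8.46, 7.62, 19.0, 15.35 and 17.7 CPM in *Pde2A*-/- replicates A, B, 14, D and 15, and at 4.165, 4.76 and 7.99 CPM at the lowest, median and highest of *Pde2A*+/+. *Pde2A*-/- replicates A and B were close to *Pde2A*+/+ replicate 11, the highest *Pde2A*+/+ heart, and B was below it, while 14, D and 15 were far above all *Pde2A*+/+ hearts. *Nfkbiz* had the highest fold change of the 10 genes, 2.575 (95% interval 1.78 to 3.73), with 13.6 ± 5.27 CPM in *Pde2A*-/- and 5.29 ± 1.42 CPM in *Pde2A*+/+ (log2 fold change 1.36, SE 0.25, edgeR adjusted p = 0.0040). Without *Pde2A*+/+ replicate 11 the log2 fold change was 1.52 and all *Pde2A*-/- hearts were above all *Pde2A*+/+ hearts, and without *Pde2A*+/+ replicate 7 it was 1.33. *Bcl3* (ENSMUSG00000053175, chromosome 7 from 19808462 to 19822770) was at 2.87, 2.88, 4.03, 3.61 and 3.06 CPM in the *Pde2A*-/- hearts and at 1.10, 1.655 and 2.425 CPM at the lowest, median and highest of *Pde2A*+/+. It was the least abundant of the 10, with 40 to 162 counts per heart, and its genotypes did not overlap. *Bcl3* was 1.93-fold higher (3.29 ± 0.512 against 1.70 ± 0.442 CPM, log2 fold change 0.95, SE 0.18, edgeR adjusted p = 0.0052), and without *Pde2A*+/+ replicate 7 the log2 fold change was 1.08. Its exons share 6.51% of their bases with *Gm16175* on the opposite strand, where *Bcl3* had 0 to 6 reads per heart. *Relb* and *Bcl3* lie on the chromosome of *Pde2a*, 81.8 and 81.6 megabases from it.

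*Tnfaip3* encodes A20, the ubiquitin-editing enzyme that ends signalling from TNF and Toll-like receptors. *Tnfaip3* (ENSMUSG00000019850, chromosome 10 from 19000910 to 19015657) was at 13.15, 13.45, 22.1, 30.3 and 32.45 CPM in *Pde2A*-/- replicates A, B, 14, D and 15, and at 7.96, 9.89 and 10.8 CPM at the lowest, median and highest of *Pde2A*+/+. All *Pde2A*-/- hearts were above all *Pde2A*+/+ hearts, A and B by little and D and 15 by the most. *Tnfaip3* was 2.31-fold higher in *Pde2A*-/- hearts (95% interval 1.67 to 3.21, 22.3 ± 9.07 against 9.63 ± 1.06 CPM, log2 fold change 1.21, SE 0.22, edgeR adjusted p = 0.0039). Its SD was 9.07 CPM among *Pde2A*-/- and 1.06 CPM among *Pde2A*+/+ hearts. Without *Pde2A*+/+ replicate 7 the log2 fold change was 1.245. The 5 genes *Nfkbia*, *Nfkbie*, *Nfkbiz*, *Tnfaip3* and *Bcl3* passed the threshold in each of the 11 fits that left out a heart.

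**Figure D2:**
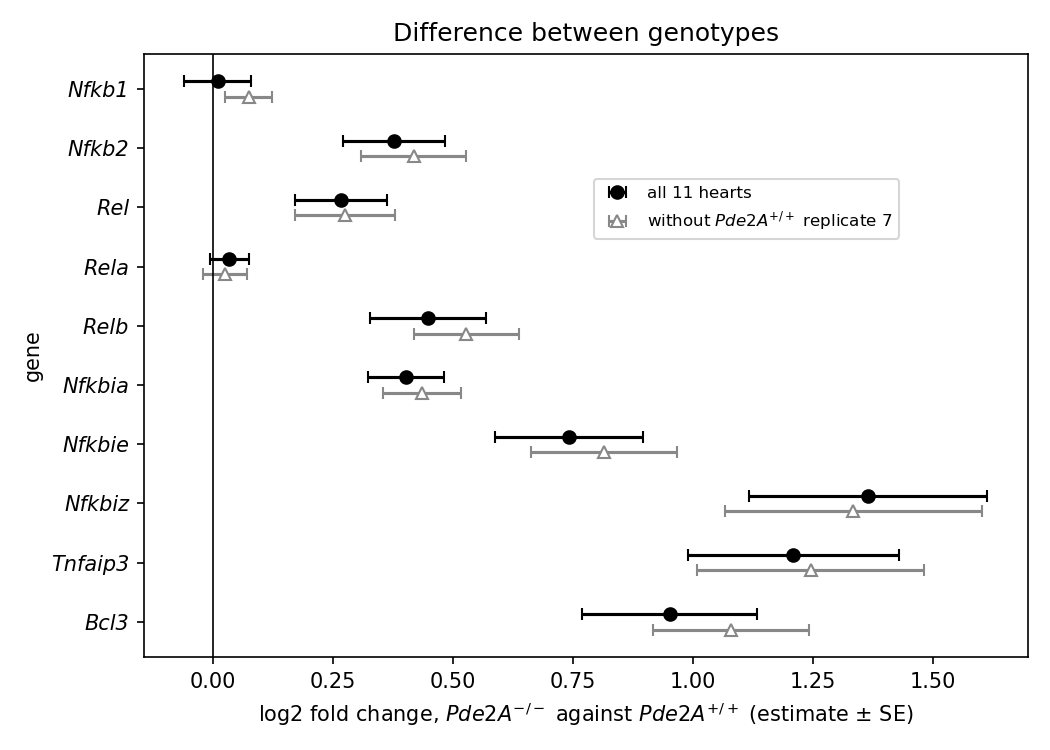
Log2 fold change of each gene between *Pde2A*-/- and *Pde2A*+/+ hearts from edgeR, as estimate ± SE, with all 11 hearts (black circles) and without *Pde2A*+/+ replicate 7 (grey triangles). The estimates run from 0.01 for *Nfkb1* to 1.36 for *Nfkbiz* with all hearts, and leaving out *Pde2A*+/+ replicate 7 moves *Nfkb1* to 0.08 and *Bcl3* to 1.08.

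The *Pde2A*-/- hearts differed among themselves. Replicate B was the lowest *Pde2A*-/- heart for 5 of the 10 genes and replicate A for 3, while replicates 14, D and 15 were each the highest for 3. For 6 of the 10 genes, *Nfkb1*, *Nfkb2*, *Nfkbia*, *Nfkbiz*, *Tnfaip3* and *Bcl3*, both A and B were below 14, D and 15, as for 20.8% of all genes tested, a split of the hearts chosen after their values were seen. Of the other 4, *Rel* was lowest in 14, *Rela* was highest in B, and *Relb* and *Nfkbie* had A above 15. Of the 12 sums of marker lists 3 had A and B below 14, D and 15, those of macrophages, fibroblasts and hepatocytes, and the other 9 did not, with the erythroid and the endothelial sum highest in B and the neutrophil and the megakaryocyte sum lowest in 14. Most of the hepatocyte sum in these hearts was *Trf*, at 36.2, 46.1, 49.6, 64.3 and 66.1 CPM in A, B, 14, D and 15. Over all genes, the mean squared difference between 2 hearts in units of counting noise was 19.2 between A and B. Replicate A was 44.9, 74.05 and 91.5 from 14, D and 15, and 24.9 to 47.8 from the *Pde2A*+/+ hearts, so that by this measure it lay nearer to *Pde2A*+/+ hearts than to 14, D or 15, except to *Pde2A*+/+ replicate 11, which was farther than 14. Replicate B was 35.3, 59.4 and 76.8 from 14, D and 15, and 36.9 to 56.6 from the *Pde2A*+/+ hearts, while 14, D and 15 were 25.9 to 30.7 from each other and 65.3 or more from the *Pde2A*+/+ hearts. Without A and B, an alternative chosen after seeing the data, 8 of the 10 genes were higher and 0 lower (edgeR; 8 and 0 at an unadjusted p under 0.05), where 3493 of all genes were higher and 3314 lower. Among *Pde2A*+/+ hearts, replicates 6 and 8 were each the lowest for 4 genes.

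Levels of different genes were compared per kb of merged exons. In *Pde2A*+/+ hearts *Nfkbia* was first with 17.0 ± 1.47 CPM per kb, followed by *Rela* with 13.6 ± 0.414, *Nfkb1* with 7.57 ± 0.827, *Nfkb2* with 5.20 ± 0.442 and *Relb* with 1.79 ± 0.272 CPM per kb. The ranges over *Pde2A*+/+ hearts of neighbours in this order did not overlap, down to *Relb* against *Rel*. *Rel* (1.38 ± 0.0789), *Tnfaip3* (1.33 ± 0.147), *Nfkbie* (1.08 ± 0.176), *Nfkbiz* (1.05 ± 0.283) and *Bcl3* (0.687 ± 0.179 CPM per kb) followed, and each of these overlapped the next. In *Pde2A*-/- hearts the order started with the same 4 genes, at 22.4 ± 2.38 CPM per kb for *Nfkbia* and 13.98 ± 0.386 for *Rela*, and the ranges of *Nfkb1* (7.63 ± 0.434) and *Nfkb2* (6.75 ± 1.23 CPM per kb) overlapped. *Tnfaip3* with 3.085 ± 1.255 CPM per kb and *Nfkbiz* with 2.715 ± 1.05 CPM per kb stood in the fifth and the sixth place, before *Relb*, *Nfkbie*, *Rel* and *Bcl3*, and from *Tnfaip3* on each gene overlapped the next.

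**Figure D3:**
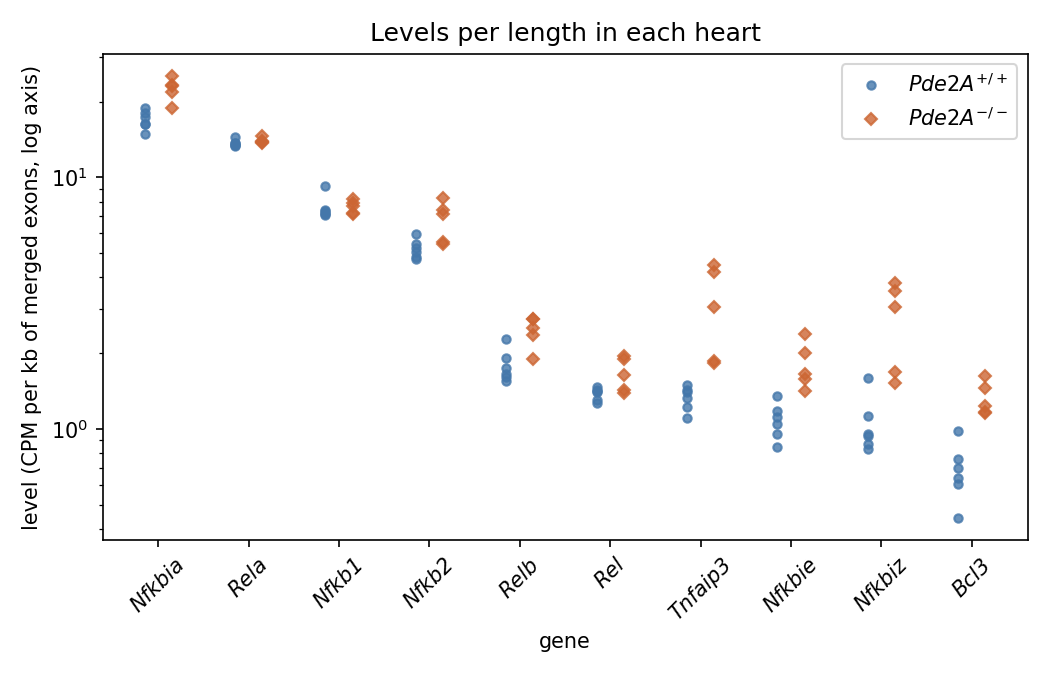
Level of the 10 genes in CPM per kb of merged exons (log axis) in each *Pde2A*+/+ (blue circles) and *Pde2A*-/- (orange diamonds) heart, ordered by the *Pde2A*+/+ mean. *Nfkbia* and *Rela* lie at the top in both genotypes (17.0 and 13.6 CPM per kb in *Pde2A*+/+), and *Bcl3* at the bottom (0.687 CPM per kb in *Pde2A*+/+).

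The other genes of the pathway were taken from 6 lists with 108 genes, of which 106 were tested. The lists were chosen with earlier results of these data known, so that the shares describe them and are no independent test. In *Pde2A*-/- hearts 32 of the 106 were higher (30.2%, against 8.93% of all genes tested) and 4 were lower (3.77%, against 5.67%), and 10 were higher at a fold change of at least 2 as well (9.43%, against 2.21%). Their median log2 fold change was 0.23. Without *Pde2A*+/+ replicate 7, 31 were higher and 3 lower (1811 and 847 of all genes). Without *Pde2A*+/+ replicate 11, 29 were higher and 5 lower (1895 and 1177 of all genes), and without both, 30 and 4 (1486 and 744). Over the fits that left out 1 heart the number higher ranged from 23, without *Pde2A*-/- replicate 14, to 38, without *Pde2A*-/- replicate A. The number lower ranged there from 1, without *Pde2A*-/- replicate D, to 7, without *Pde2A*-/- replicate A. Without *Pde2A*-/- replicate D and *Pde2A*+/+ replicates 11, H and E, 10 were higher and 0 lower (482 and 50 of all genes). Among the 5 hearts named by a letter 1 was higher and 0 lower (86 and 14 of all genes).

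Of the 11 genes of IKK kinases and the TAK1 kinase with its partners, 2 were higher and 1 lower (edgeR; 4 and 1 at an unadjusted p under 0.05, and 4 and 1 with DESeq2), with a median log2 fold change of 0.125. Of all genes tested 8.93% were higher and 5.67% lower in edgeR, 15.6% and 14.9% at an unadjusted p, and 11.5% and 9.74% with DESeq2. *Tab3*, whose protein ties TAK1 to ubiquitin chains, was higher by 0.64 on the log2 scale (42.0 ± 11.1 against 26.9 ± 1.24 CPM, SE 0.14, edgeR adjusted p = 0.0091), in 5 of 5 *Pde2A*-/- hearts above all *Pde2A*+/+ hearts. *Tbk1*, an IKK-related kinase, was higher by 0.13 (35.55 ± 0.164 against 32.6 ± 0.559 CPM, edgeR adjusted p = 0.038). *Chuk*, which encodes IKKα, fell by 0.18 on the log2 scale (35.4 ± 2.71 against 40.1 ± 1.40 CPM, edgeR adjusted p = 0.043), with 4 *Pde2A*-/- hearts below all *Pde2A*+/+ hearts. Without *Pde2A*+/+ replicate 7, 1 gene of the list was higher and 0 lower, so that *Chuk* did not pass there (1811 and 847 of all genes). Without *Pde2A*+/+ replicate 11, 1 gene of the list was higher and 1 lower (1895 and 1177 of all genes). *Tab2*, the most abundant of the list, was at 209.5 ± 16.2 CPM in *Pde2A*-/- and 189.5 ± 6.36 CPM in *Pde2A*+/+ and did not pass (edgeR adjusted p = 0.076).

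Adaptors carry the signal from receptors to the kinases. Of 22 adaptor genes 5 were higher and 0 lower, where 8.93% and 5.67% of all genes tested were (edgeR; 7 higher and 2 lower at an unadjusted p under 0.05, and 5 and 0 with DESeq2), with a median log2 fold change of 0.04. *Irak2*, a kinase-like protein of the IL-1 and Toll-like receptor complexes, was at 10.6 ± 2.16 CPM in *Pde2A*-/- and 7.04 ± 0.392 CPM in *Pde2A*+/+ (log2 fold change 0.59, edgeR adjusted p = 0.0076). *Rnf31*, the catalytic subunit of the complex that builds linear ubiquitin chains, was at 29.9 ± 4.22 and 20.9 ± 1.05 CPM (log2 fold change 0.52, edgeR adjusted p = 0.0018). *Ticam1*, the adaptor TRIF, was higher by 0.47, with 4 *Pde2A*-/- hearts above all *Pde2A*+/+ hearts, *Irak4* by 0.31 and *Myd88*, which was chosen after its values were seen, by 0.30 on the log2 scale. For *Irak2*, *Rnf31*, *Irak4* and *Myd88* all *Pde2A*-/- hearts were above all *Pde2A*+/+ hearts. *Irak1*, the most abundant adaptor, was at 67.7 ± 6.06 CPM in *Pde2A*-/- and 71.65 ± 2.37 CPM in *Pde2A*+/+ and did not pass (edgeR adjusted p = 0.37).

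Of 18 other negative regulators 2 were higher, where 8.93% of all genes tested were, and 0 lower (edgeR; 6 higher and 3 lower at an unadjusted p under 0.05, and 4 higher and 2 lower with DESeq2), with a median log2 fold change of 0.08. *Zc3h12a*, the RNase regnase-1 that degrades inflammatory transcripts, was at 3.45 ± 0.925 CPM in *Pde2A*-/- and 2.15 ± 0.0865 CPM in *Pde2A*+/+ (log2 fold change 0.68, edgeR adjusted p = 0.015), without overlap. *Tnip2*, which encodes an A20-binding protein, was at 13.3 ± 1.69 and 10.8 ± 0.679 CPM (log2 fold change 0.29, edgeR adjusted p = 0.039). *Tax1bp1*, an adaptor of A20 and the most abundant of the list, was at 173.6 ± 4.12 and 170.0 ± 2.50 CPM and did not pass (edgeR adjusted p = 0.62).

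Of 15 receptor genes 6 were higher and 2 lower, where 8.93% and 5.67% of all genes tested were (edgeR; 8 and 3 at an unadjusted p under 0.05, and 7 and 3 with DESeq2), with a median log2 fold change of 0.51. *Tnfrsf1b*, the TNF receptor TNFR2, was at 12.7 ± 2.06 CPM in *Pde2A*-/- and 6.76 ± 0.873 CPM in *Pde2A*+/+ (log2 fold change 0.91, edgeR adjusted p = 0.00032). *Tlr7*, a receptor for single-stranded RNA, was at 3.28 ± 0.426 and 1.825 ± 0.282 CPM (log2 fold change 0.85, edgeR adjusted p = 0.0019). The IL-1 receptor gene *Il1r1* was at 32.1 ± 3.55 and 21.0 ± 1.601 CPM (log2 fold change 0.61, edgeR adjusted p = 0.00030). For these 3 genes and for *Tlr4* and *Tnfrsf1a*, all *Pde2A*-/- hearts were above all *Pde2A*+/+ hearts. *Tlr4*, the receptor for lipopolysaccharide, was higher by 0.58 on the log2 scale, and *Tnfrsf1a*, the TNF receptor TNFR1 and the most abundant of the list in *Pde2A*-/- hearts, by 0.38 (72.7 ± 5.26 against 55.85 ± 5.29 CPM). *Tlr3*, *Tnfrsf12a* and *Il1rap* were chosen after their values were seen. *Tlr3* was higher by 0.51, *Tnfrsf12a*, the receptor of TWEAK and the most abundant of the list in *Pde2A*+/+ hearts (66.7 CPM), fell by 0.52 and *Il1rap*, the partner chain of the IL-1 receptor, fell by 0.37 on the log2 scale.

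Of 12 ligand genes 11 were tested, *Cd40lg* having 0 counts, and 2 were higher and 0 lower, where 8.93% and 5.67% of all genes tested were (edgeR; 3 higher and 1 lower at an unadjusted p under 0.05, and 2 and 0 with DESeq2). Both ligand genes that were higher were below 1 CPM on average and were chosen after their values were seen. *Il1a* was at 0.5575 ± 0.276 CPM in *Pde2A*-/- and 0.0689 ± 0.0374 CPM in *Pde2A*+/+, and *Tnfsf14* at 0.335 ± 0.0787 and 0.155 ± 0.0670 CPM. *Il33*, a nuclear cytokine of the IL-1 family, was the most abundant ligand, at 11.6 ± 1.94 CPM in *Pde2A*-/- and 9.34 ± 2.11 CPM in *Pde2A*+/+, and did not pass (edgeR adjusted p = 0.20).

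Of 30 genes known as NF-κB targets, 29 were tested, 15 were higher and 1 was lower, where 8.93% and 5.67% of all genes tested were (edgeR; 20 and 2 at an unadjusted p under 0.05, and 16 and 1 with DESeq2), and the median log2 fold change was 0.52. At a fold change of at least 2 as well, 8 were higher (2.21% of all genes tested). *Ccl2*, the chemokine that draws monocytes, was at 12.3 ± 5.58 CPM in *Pde2A*-/- and 2.42 ± 0.6895 CPM in *Pde2A*+/+ (log2 fold change 2.34, SE 0.28, edgeR adjusted p = 0.00015). *Icam1*, an adhesion molecule for leukocytes on endothelium, was at 48.5 ± 16.3 and 17.7 ± 2.85 CPM (log2 fold change 1.46, edgeR adjusted p = 0.00043). The syndecan gene *Sdc4* was at 80.0 ± 20.5 and 37.6 ± 4.59 CPM (log2 fold change 1.09, edgeR adjusted p = 0.00046). For these 3 genes all *Pde2A*-/- hearts were above all *Pde2A*+/+ hearts. The immediate early gene *Ier3* was at 62.1 ± 36.5 and 23.9 ± 2.82 CPM, with 4 *Pde2A*-/- hearts above all *Pde2A*+/+ hearts. *Fth1*, the heavy chain of ferritin and the most abundant target, was higher by 0.27 on the log2 scale (614.4 ± 48.0 against 509.9 ± 33.4 CPM, edgeR adjusted p = 0.014). *Nos2*, the inducible nitric oxide synthase, was the gene that was lower, with a log2 fold change of −0.95, and was chosen after its values were seen (2.05 ± 0.521 against 3.97 ± 1.17 CPM). Summed over the list, the targets were at 1207 CPM in *Pde2A*-/- replicate A, 1359 in B, 1425 in 14, 1528 in D and 1566 in 15, and between 1090 and 1163 CPM in *Pde2A*+/+ hearts.

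Markers of several cell types moved with the genotype as well. The shares of all genes tested that stand beside the counts of all marker lists were 8.93% higher and 5.67% lower in edgeR. At an unadjusted p under 0.05 they were 15.6% and 14.9%, and with DESeq2 11.5% and 9.74%. Of 14 macrophage markers 11 were higher and 0 lower in *Pde2A*-/- hearts (edgeR; 0 lower at an unadjusted p under 0.05 and with DESeq2), and their summed level was 259.3 CPM in *Pde2A*-/- replicate A, 290.3 in B, 333.5 in 14, 320.4 in D and 337.1 in 15. In *Pde2A*+/+ hearts the sum was 136.9 CPM at the lowest, 179.8 at the median and 207.1 at the highest, so that the genotypes did not overlap. *Csf1r*, the receptor of macrophage growth factors, was the most abundant of them (66.5 ± 7.26 against 42.5 ± 7.845 CPM, log2 fold change 0.65, edgeR adjusted p = 0.0040), and no macrophage marker was at 0 counts. Of 10 neutrophil markers 7 of 9 tested were higher. Their sum was 30.0, 26.5, 23.8, 65.7 and 37.85 CPM in *Pde2A*-/- replicates A, B, 14, D and 15 and between 1.515 and 10.4 CPM in *Pde2A*+/+ hearts, with a median of 6.09. *S100a9* was the most abundant (10.9 ± 4.33 against 1.38 ± 0.989 CPM), and *Ly6g*, which defines mature neutrophils, had 4 counts in all hearts together.

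Of 10 endothelial markers 4, *Pecam1*, *Emcn*, *Flt1* and *Egfl7*, were higher and 1, *Cldn5*, was lower (edgeR; 7 and 1 at an unadjusted p under 0.05, and 6 and 1 with DESeq2). Their sum was 1516, 1619, 1519, 1510 and 1591 CPM in *Pde2A*-/- replicates A, B, 14, D and 15 and between 1207 and 1437 CPM in *Pde2A*+/+ hearts, with a median of 1363. *Cdh5*, VE-cadherin and the most abundant of the list, was at 317.2 ± 34.7 CPM in *Pde2A*-/- and 317.1 ± 27.2 CPM in *Pde2A*+/+ hearts. Of 10 erythroid markers 9 were higher, and their sum was 476.7, 970.7, 780.0, 728.5 and 793.9 CPM in the *Pde2A*-/- hearts and 108.0 to 492.0 CPM in *Pde2A*+/+ hearts, with a median of 248.1. *Slc4a1*, the anion exchanger of red cells, was the most abundant in *Pde2A*-/- hearts (380.8 ± 94.8 against 54.2 ± 24.55 CPM), and *Alas2*, the first enzyme of heme synthesis in red cells and the 1 marker of the list that was not higher, was the most abundant in *Pde2A*+/+ hearts (124.3 CPM in *Pde2A*-/-, 189.0 CPM in *Pde2A*+/+). Among the megakaryocyte markers *Pf4* and *Ppbp* were higher, and *Itga2b* was the most abundant (14.7 ± 1.68 against 11.4 ± 2.37 CPM). The sum over the list was 33.8, 36.2, 29.1, 30.3 and 41.05 CPM in the *Pde2A*-/- hearts and 13.6 to 25.1 CPM in *Pde2A*+/+ hearts, with a median of 19.7. The part of these cell types in the levels of the NF-κB genes was not tested.

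Of 12 cardiomyocyte markers 1, *Nppa*, was higher and 3, *Ttn*, *Tnni1* and *Nkx2-5*, were lower (edgeR; 6 lower at an unadjusted p under 0.05, and 6 with DESeq2), and 3 of the 12 had a log2 fold change above 0. Of 8 fibroblast markers 3, *Pdgfra*, *Tcf21* and *Postn*, were higher (edgeR; 4 at an unadjusted p under 0.05, and 3 with DESeq2), with *Col3a1* the most abundant (3109 ± 514.2 against 2846 ± 467.9 CPM). The fibroblast sums were 7242, 7097, 9082, 11490 and 9885 CPM in *Pde2A*-/- replicates A, B, 14, D and 15 and 5990 to 11080 CPM in *Pde2A*+/+ hearts and overlapped. Of 6 mast cell markers *Cpa3* was lower (1.13 ± 0.248 against 3.73 ± 1.70 CPM), and of 5 tested 4 were lower at an unadjusted p under 0.05 in edgeR and 3 with DESeq2. Of 8 hepatocyte markers *Trf* was higher (52.5 ± 12.6 against 31.6 ± 7.82 CPM) and was the only gene of the list with a log2 fold change above 0. The median of the list was −2.002, with *Alb* at 2.37 CPM in *Pde2A*-/- and 13.35 CPM in *Pde2A*+/+ hearts on average, and the sums were 38.4, 47.75, 51.4, 100.9 and 68.5 CPM in *Pde2A*-/- replicates A, B, 14, D and 15 and 28.3 to 78.0 CPM in *Pde2A*+/+ hearts other than replicate E, which was at 157.3 CPM. B cell markers summed to 0.835 to 1.33 CPM in *Pde2A*-/- and 0.658 to 1.43 CPM in *Pde2A*+/+ hearts, with *Cd79b* the most abundant, and none passed the threshold in edgeR, at an unadjusted p under 0.05 or with DESeq2. Of the T cell and thymocyte markers none passed either, with *Lck* the most abundant in *Pde2A*-/- hearts at 2.72 ± 0.202 CPM, against 5.42 ± 8.58 CPM in *Pde2A*+/+ hearts, where *Rag1* was the most abundant at 5.46 CPM (edgeR; 7 lower at an unadjusted p under 0.05, and 0 with DESeq2). Without *Pde2A*+/+ replicate 7, 1 of 6 tested was higher in edgeR. Over all hearts *Nkx2-1* was at 0.0815 ± 0.117 CPM in *Pde2A*-/- and 0.874 ± 2.13 CPM in *Pde2A*+/+.

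The promoters of the 10 genes were read from RefSeq, as 250 bases before to 50 after the start of the gene on GRCm38.p6. By symbol 7 of the 10 genes matched, with 10 windows, and *Nfkb1*, *Relb* and *Nfkbiz* did not. The consensus of the κB element, the motif that NF-κB dimers bind, was searched on both strands, and 8 of the 10 windows and 6 of the 7 genes held at least 1 match. Of the 3 windows of *Nfkb2* 2 overlap, and the only match of the last of them, at chr19:46305705-46305714, is counted in both. Of 32851 promoter windows of the same length 4.51% held one. The genes were chosen as subunits and feedback targets of the pathway, so that the comparison with all windows is no test. The windows of *Rela* and of the downstream start of *Tnfaip3* held none. The cAMP response element TGACGTCA, searched on both strands, was in 0 of the 10 windows and in 1.79% of all windows, and 10 windows are too few to tell these apart. A match is a description of the letters in the window, and binding was not measured. The windows of 5 genes that were higher in *Pde2A*-/- hearts are shown 5′ to 3′ on the strand of the gene, with κB matches in capitals, for *Nfkb2* and *Tnfaip3* those of the upstream start, and overlapping matches run together.
*Nfkbia*, chr12:55492598-55492897, minus strand: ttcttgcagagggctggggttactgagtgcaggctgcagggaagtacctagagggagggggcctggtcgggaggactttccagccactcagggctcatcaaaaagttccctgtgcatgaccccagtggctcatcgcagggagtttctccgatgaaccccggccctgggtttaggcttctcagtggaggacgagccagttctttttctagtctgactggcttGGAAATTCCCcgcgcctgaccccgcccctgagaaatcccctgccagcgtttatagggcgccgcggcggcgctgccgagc
*Nfkbie*, chr17:45555450-45555749, plus strand: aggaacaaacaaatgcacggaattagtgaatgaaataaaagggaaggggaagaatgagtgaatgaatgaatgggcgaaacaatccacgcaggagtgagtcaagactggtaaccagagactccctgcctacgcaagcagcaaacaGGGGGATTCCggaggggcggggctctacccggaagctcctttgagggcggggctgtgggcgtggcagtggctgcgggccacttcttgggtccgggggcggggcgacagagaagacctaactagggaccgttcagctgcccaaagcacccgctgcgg
*Tnfaip3*, chr10:19015361-19015660, minus strand: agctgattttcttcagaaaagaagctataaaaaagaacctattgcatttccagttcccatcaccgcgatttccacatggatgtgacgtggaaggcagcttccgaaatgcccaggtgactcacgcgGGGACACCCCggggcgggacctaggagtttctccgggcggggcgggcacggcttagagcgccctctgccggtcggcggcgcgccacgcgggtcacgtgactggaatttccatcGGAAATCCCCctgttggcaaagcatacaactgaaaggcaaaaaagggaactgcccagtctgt
*Bcl3*, chr7:19822706-19823005, minus strand: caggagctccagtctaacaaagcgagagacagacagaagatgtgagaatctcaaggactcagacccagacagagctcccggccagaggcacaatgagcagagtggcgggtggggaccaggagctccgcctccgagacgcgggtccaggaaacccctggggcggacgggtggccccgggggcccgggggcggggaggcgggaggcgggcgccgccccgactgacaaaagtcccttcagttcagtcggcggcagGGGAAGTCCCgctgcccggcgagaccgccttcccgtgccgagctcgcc
*Nfkb2*, chr19:46304487-46304786, plus strand: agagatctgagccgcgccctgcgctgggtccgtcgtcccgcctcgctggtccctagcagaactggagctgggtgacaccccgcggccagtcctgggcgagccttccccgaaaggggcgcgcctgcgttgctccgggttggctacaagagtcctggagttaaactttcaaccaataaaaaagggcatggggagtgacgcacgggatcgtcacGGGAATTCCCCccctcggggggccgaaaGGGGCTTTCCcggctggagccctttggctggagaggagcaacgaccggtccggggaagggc
The match of *Bcl3* lies at chr7:19822744-19822753 and that of *Nfkbia* at chr12:55492667-55492676, both on the strand opposite to the gene. The match of *Nfkbie* lies at chr17:45555594-45555603 on the strand of the gene. *Nfkb2* held 3 matches in this window, of which 2 overlap by 9 bases on opposite strands, and *Tnfaip3* held 2, at chr10:19015526-19015535 and chr10:19015413-19015422. The window of *Rel*, which did not pass the threshold with the main settings, held 2 overlapping matches as well.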

How the data were processed

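RNA of 5 *Pde2A*-/- and 6 *Pde2A*+/+ hearts was sequenced at a service facility on a NextSeq instrument in single-end, stranded libraries. Per the labels, reads were mapped to GRCm38 with STAR, whose version is not given in the sources used here, and the authors deposited whole-number counts per gene, without normalization. The column of the strand with the larger total was used. Reads that lay on no single gene, 19.6% to 22.4% per heart, were left out. GENCODE M21 gave names, positions and exons. Counts were filtered, normalized by TMM and tested with edgeR 4.0.16 in R 4.3.3, and the test was checked on simulated data. The alternatives were DESeq2 1.42.0, other size factors, filters, strands and thresholds, the naming style of the replicates, and hearts left out. Python 3.11.15 with pandas 2.3.3, scipy 1.17.1, numpy 2.4.6 and matplotlib 3.10.9 was used for tables and plots.

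The members and the lists were chosen with earlier results of these data known. The text names the 10 members, *Pde2a*, from each pathway list up to 4 genes past the threshold with a mean of at least 1 CPM and the largest changes, and the most abundant gene of each list. Other genes of the lists were named after their values were seen. The result of 1 marker gene is not reported here. Hearts of the same genotype differed by 19.2 to 91.5 times counting noise, as mean squared difference over genes.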

Additional observations from a re-analysis of the deposited data

Results flagged for a closer look

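In 2 of the 20 groups of values, 10 genes in each genotype, 1 heart lay far from the others of its genotype. For *Nfkb1*, *Pde2A*+/+ replicate 7 was at 111.5 CPM, and its gap to the next heart was 0.858 of the range of the *Pde2A*+/+ hearts. This is the heart with the markers of T cells and thymocytes. For *Rela*, *Pde2A*-/- replicate B was at 45.01 CPM, and its gap was 0.788 of the range of the *Pde2A*-/- hearts, which spanned 42.1 to 45.01 CPM. Chance alone places about 1 in 20 groups past this limit. The cause was not tested in either case.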

How the results depend on the processing

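No paired analysis was possible because the replicate names of the genotypes are not shared. The 7 members higher were 8 with DESeq2 and 7 with other size factors, with filterByExpr, without a filter, on reads of both strands and with the naming style of the replicates as a covariate. Of all genes, 2160 were higher and 1372 lower with the main settings, and 2791 and 2354 with DESeq2. The counts were 2148 and 1438 with other size factors, 2324 and 1884 with filterByExpr, and 2030 and 1148 without a filter. They were 2178 and 1342 on reads of both strands, and 2354 and 1598 with the naming style as a covariate. Leaving out each heart in turn gave 5 to 8 members higher and 0 lower, 23 to 38 pathway genes higher and 1 to 7 lower, and 1288 to 2887 of all genes higher and 414 to 2165 lower. DESeq2 gave 7 pathway genes and 2354 of all genes lower. The hearts named by a letter, 5 in all, gave 0 members higher, 1 pathway gene higher and 0 lower, and 86 of all genes higher and 14 lower (edgeR; 28 and 4 pathway genes and 1514 and 846 of all genes at an unadjusted p under 0.05). A fold change of at least 2 left 2 members higher, 10 pathway genes higher and 0 lower, and 535 of all genes higher and 90 lower. An adjusted p under 0.01 left 5 members and 17 pathway genes higher and 0 lower, and 889 of all genes higher and 142 lower. Without *Pde2A*+/+ replicates 7 and 11, an alternative chosen after seeing the data, 744 of all genes were lower. Without *Pde2A*-/- replicate D and *Pde2A*+/+ replicates 11, H and E, also chosen after seeing the data, 0 members, 10 pathway genes and 482 of all genes were higher and 0, 0 and 50 lower (edgeR; 5, 37 and 2577 higher and 0, 7 and 2159 lower at an unadjusted p under 0.05), and the log2 fold change of *Nfkb1* was −0.042. Without *Pde2A*-/- replicates A and B, likewise, 8 members, 43 pathway genes and 3493 of all genes were higher and 0, 13 and 3314 lower, and *Rel* passed the threshold (log2 fold change 0.34, edgeR adjusted p = 0.027). The log2 fold change of *Nfkb1* stayed near 0 and changed sign, to −0.0054 in the hearts named by a letter and over a range of −0.013 to 0.076 when each heart was left out, negative without *Pde2A*-/- replicate 14 (−0.0011) or 15 and without *Pde2A*+/+ replicate 11 (−0.0048) or 6 (−0.0033). The hearts named by a number, 6 in all, gave 5 members, 28 pathway genes and 2310 of all genes higher and 0, 5 and 1814 lower (edgeR; at an unadjusted p under 0.05, 0 members lower, and 0 with DESeq2 on all hearts), and what sets these hearts apart from the 5 named by a letter was not tested. *Bcl3* had 40 to 162 counts per heart, the lowest depth of the 10 genes.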
